A study of Gossypium hirsutum with 24 samples.

Results

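ATOSM34 (osmotin 34, probe set Ghi.1008.1.S1_at) and YLS9 (yellow-leaf-specific gene 9, probe set Ghi.1011.1.A1_s_at) are 2 of the 24132 probe sets of the cotton GeneChip, an Affymetrix expression array. They were taken because both stand in the study's table of transcripts measured by quantitative PCR, which lists transcripts already found changed on these arrays. The difference between infested and control bolls is therefore what chose them, and it is given below as a description, with no test. In infested bolls both transcripts were higher than in controls at every stage, by 3.33 to 7.77 log2 units for ATOSM34 and by 2.51 to 6.89 log2 units for YLS9. In the deposited values, levels in control bolls were lowest and those in infested bolls highest at 10 days post anthesis (dpa). Both differences were largest there. After quantile normalization of the deposited values this order turned for ATOSM34, whose difference was then 5.73 at 2 dpa and 5.37 at 10 dpa. Those values had already been quantile normalized and then centred per probe set, and the second run sets all arrays to the same spread. It therefore does not settle which stage had the largest difference.

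The study followed developing bolls of Gossypium hirsutum cv. Bikaneri narma, grown in the field, with and without the cotton bollworm Helicoverpa armigera. There were 8 groups of 3 arrays, made up of control (CN) and infested (BS) bolls of 4 ages, namely 0, 2, 5 and 10 dpa. Each array held RNA pooled from bolls of 5 plants, so the spread given here is that between pools. CN and BS plants stood in separate plots, so plot and treatment cannot be told apart. A larva was placed at flower opening and stayed for 8 hours in the 0 dpa BS group, for 2 days in the 2 dpa BS group and for 5 days in the 5 dpa BS group. In the 10 dpa BS group it was taken off after 5 days and the boll grew on, for up to 10 days by the labels and for another 10 days by the methods. Flowers of the CN groups were bagged in the same way without a larva. Whole bolls were used at 0 and 2 dpa and the infested portion alone at 5 and 10 dpa, so the tissue sampled changed between those stages. The methods do not say which part of the CN bolls was taken at 5 and 10 dpa. The tissue of BS and CN may therefore not match there.

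Osmotins belong to the thaumatin-like proteins, the PR-5 class of pathogenesis-related proteins. They were first found in tobacco cells adapted to salt, several of them act against fungi by making membranes leaky, and their transcripts respond to abscisic acid, ethylene, drought and wounding in a number of plants. YLS9 is known from Arabidopsis, where it was found among transcripts that accumulate in yellowing leaves and is also called NHL10. It belongs to the NDR1/HIN1-like family, named after NDR1, a membrane protein needed for resistance to bacteria in Arabidopsis, and HIN1, a tobacco gene induced by bacterial harpin. The array annotation calls each of the cotton transcripts weakly similar to its Arabidopsis namesake, and a hormone table of the study assigns the YLS9 probe set to another member of the same family, NHL25. The suffix of the YLS9 probe set marks probes shared by several transcripts, and upland cotton is an allotetraploid, so gene copies cannot be told apart.

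The primers designed by the study for quantitative PCR are shown because they were designed on the cotton transcripts and bound the stretch that was amplified. In each pair the forward and reverse primers lie on opposite strands. They are written 5′ to 3′.
ATOSM34 forward: cccaaaggatgacccaacaa
ATOSM34 reverse: gaaaggacttaaaccatcccaaatac
YLS9 forward: cccaccaaggataaccagatg
YLS9 reverse: gatcgaggctagggcttacta
The ATOSM34 primers are 20 and 26 bases long, each with 10 G or C bases, and the YLS9 primers are 21 bases each, with 11 G or C bases.

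All values are on the log2 scale, and each probe set was set to a median of 0 over the 24 arrays before deposition. A value of 1 thus lies 1 log2 unit above the middle of that transcript's own arrays, and levels of different transcripts cannot be compared. The replicate arrays lay close together, with a median SD over probe sets between 0.07 and 0.11 within groups. The spike-in RNAs of the array were also higher in BS than in CN arrays at every stage, with no overlap. The 27 probe sets for hybridization controls were higher by 0.58 to 0.84 and the 42 probe sets for poly-A controls by 0.94 to 1.83 log2 units. When arrays were centred on the poly-A controls, the BS minus CN difference was 1.62 to 6.83 log2 units for ATOSM34 and 1.39 to 5.95 for YLS9, each still above 0 at all 4 stages. The difference in level between the 3′ and 5′ probe sets of 6 housekeeping pairs moved both ways between CN and BS, by -0.86 to 0.54 at 0 dpa, -0.39 to 0.55 at 2 dpa, -0.37 to 1.19 at 5 dpa and -1.54 to 1.40 at 10 dpa, with medians of 0.07 to 0.19 log2 units. The part of RNA quality in the differences of ATOSM34 and YLS9 was not tested.

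ATOSM34 in control bolls was lowest at 10 dpa and highest at 5 dpa. Its 3 arrays at 0 dpa read -2.38, -2.36 and -2.38. Those at 2 dpa read -3.36, -3.45 and -3.31, all below the 0 dpa arrays. At 5 dpa they read -0.84, -0.91 and -1.06, the highest of the CN groups. At 10 dpa they read -4.37, -4.48 and -4.48, the lowest of all 8 groups. In the infested bolls every array lay above the median of the 24 arrays. The 0 dpa BS arrays read 1.11, 1.04 and 1.06. The 2 dpa BS arrays read 0.91, 0.84 and 0.93, slightly under those at 0 dpa. The 5 dpa BS arrays read 2.37, 2.37 and 2.44. The 10 dpa BS arrays read 3.30, 3.38 and 3.31, the highest of all groups. From the highest level to the lowest, the ATOSM34 groups ran BS 10, BS 5, BS 0, BS 2, CN 5, CN 0, CN 2 and CN 10 dpa. No neighbours in that order overlapped, and the closest were BS 0 and BS 2 dpa, whose means differed by 0.18 against SDs of 0.04 and 0.05 (n = 3 each). After quantile normalization the lowest group was CN 2 dpa, at -2.86 from CN 0 dpa, while CN 10 dpa was at -1.11 from it. In that run the mean of BS 5 dpa also lay above that of BS 10 dpa.

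YLS9 in control bolls fell between the early and the late stages. The 0 dpa CN arrays read -1.30, -1.18 and -1.42. The 2 dpa CN arrays read -1.22, -1.20 and -1.25 and overlapped with those of 0 dpa. At 5 dpa the CN arrays read -3.09, -3.20 and -3.17. At 10 dpa they read -3.61, -4.04 and -3.33, with an SD of 0.36, the widest of any group for either transcript. The infested bolls stayed above all control bolls throughout. Their arrays read 1.18, 1.27 and 1.18 at 0 dpa. At 2 dpa they read 2.01, 2.07 and 2.03. At 5 dpa they read 1.92, 1.87 and 1.99, just under those at 2 dpa. At 10 dpa they read 3.23, 3.22 and 3.26, again the highest of the 8 groups. The YLS9 order was BS 10, BS 2, BS 5, BS 0, CN 2, CN 0, CN 5 and CN 10 dpa. CN 2 and CN 0 dpa did not differ beyond their spread, BS 2 and BS 5 dpa were separated by a gap of only 0.02 between their nearest arrays, and CN 5 and CN 10 dpa by one of 0.14.

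**Figure D1:**
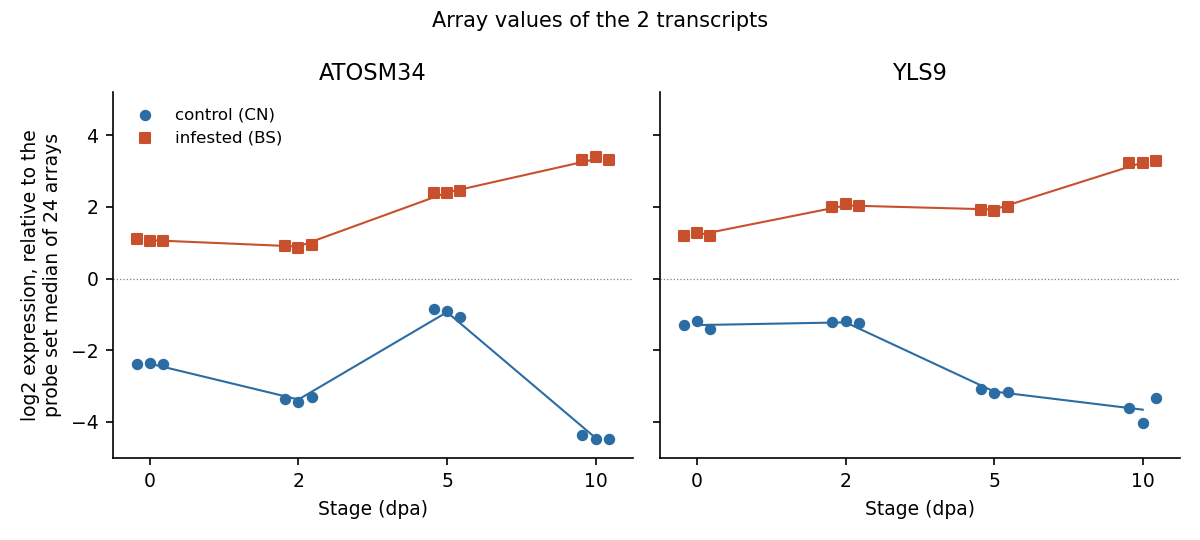
Values of ATOSM34 (left) and YLS9 (right) in each of the 24 arrays, in log2 units relative to the median of the probe set, against stage in dpa; points are arrays, lines join group means of control (CN, circles) and infested (BS, squares) bolls. ATOSM34 peaks at a mean of -0.94 in CN bolls at 5 dpa and drops to -4.44 at 10 dpa, YLS9 in CN bolls drops from -1.22 at 2 dpa to -3.15 at 5 dpa, and both BS lines end above 3.

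The size of the difference between infested and control bolls followed a different course in the 2 transcripts. For ATOSM34, BS exceeded CN by 3.44 log2 units at 0 dpa (10.9-fold), 4.27 at 2 dpa (19.2-fold), 3.33 at 5 dpa (10.1-fold) and 7.77 at 10 dpa (219-fold), each with a standard error (SE) of 0.06. In the deposited values the dip at 5 dpa lay with the controls, since from 2 to 5 dpa the BS mean rose by 1.51 and the CN mean by 2.44. For YLS9, BS exceeded CN by 2.51 log2 units at 0 dpa (5.69-fold), 3.26 at 2 dpa (9.57-fold), 5.08 at 5 dpa (33.8-fold) and 6.89 at 10 dpa (119-fold), each with an SE of 0.11. This difference widened at each successive stage, by 0.75, 1.82 and 1.82 log2 units (SE 0.15 each). The sizes of these steps depended on the scaling, with 1.58, 0.10 and 0.44 after quantile normalization and 0.04, 1.93 and 2.59 with arrays centred on the poly-A controls. In the deposited values the widening from 2 to 5 dpa again lay with the controls, whose mean fell by 1.93 while the BS mean differed by 0.11. ATOSM34 responded by more than YLS9 at 0, 2 and 10 dpa, by 0.93, 1.01 and 0.88 log2 units, and by less at 5 dpa, where its difference minus that of YLS9 was -1.74 (SE 0.12 each). This SE takes the 2 probe sets as independent, although both were read on the same arrays.

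Both members were past the thresholds used for a call (adjusted p up to 0.01, 3-fold or more) at all 4 stages. Since the rule used this contrast, nothing is read from that count. Of the 23977 probe sets tested, the share called higher in BS was 4.19%, 3.34%, 6.39% and 8.97% at 0, 2, 5 and 10 dpa, and 348 (1.45%) were called higher at all 4 stages. Among all tested probe sets, counted from the largest rise, ATOSM34 was 179th at 0 dpa, 32nd at 2 dpa, 388th at 5 dpa and 19th at 10 dpa. YLS9 was 451st, 118th, 97th and 50th at these stages. The lowest BS array lay above the highest CN array by 3.39, 4.15, 3.21 and 7.67 log2 units for ATOSM34 and by 2.35, 3.20, 4.96 and 6.55 for YLS9, at 0, 2, 5 and 10 dpa. Among the 32 raised transcripts of the quantitative PCR table, ordered by the array difference computed here, ATOSM34 was 8th at 2 and 10 dpa, 23rd at 0 dpa and 31st at 5 dpa. YLS9 was 28th, 17th, 17th and 26th at 0, 2, 5 and 10 dpa, so neither led this table at any stage.

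**Figure D2:**
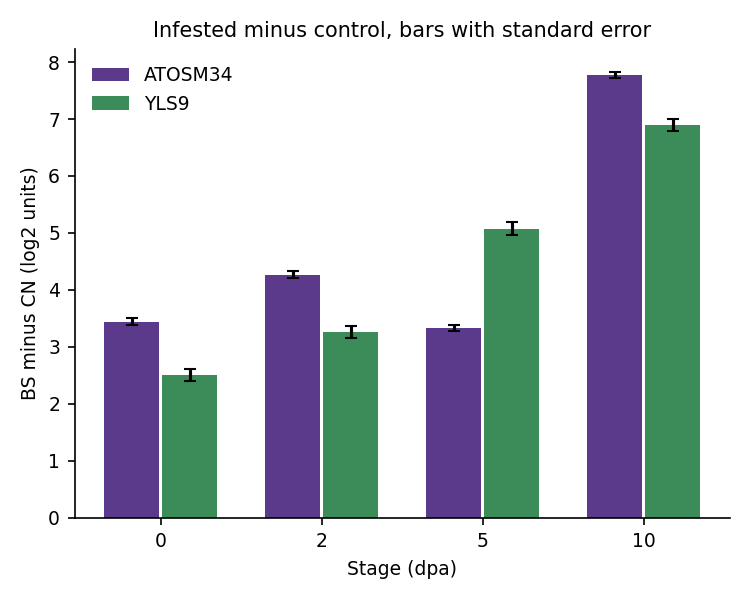
Difference between infested (BS) and control (CN) bolls in log2 units (vertical axis, from 0) at each stage in dpa, as bars for ATOSM34 and YLS9 with SE from the fit across all arrays (n = 3 arrays per group). YLS9 climbs from 2.51 to 6.89, whereas ATOSM34 reads 3.33 at 5 dpa, below its 4.27 at 2 dpa, before it reaches 7.77.

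Changes between stages were tested within the control bolls and within the infested bolls, by limma, with p-values adjusted over the 23977 probe sets after Benjamini and Hochberg. These arrays are the ones that entered the choice of the members, and a fall in CN or a rise in BS adds to the difference they were chosen for. In control bolls, ATOSM34 rose by 2.44 log2 units from 2 to 5 dpa (5.41-fold, adjusted p = 3.0e-18), where 1.08% of probe sets were called higher. It then fell by 3.51 from 5 to 10 dpa (11.4-fold, adjusted p = 4.2e-20), where 0.542% were called lower, and this was the 12th largest fall of the array. In all, 25 probe sets (0.104%) were called both higher in the first and lower in the second of these steps, and ATOSM34 is 1 of them. This pattern is the course of ATOSM34 itself, so nothing is read from its place among them. From 0 to 2 dpa it fell by 1.00 (adjusted p = 9.2e-12), a 2.00-fold change that stayed under the fold threshold. YLS9 in control bolls read 0.08 higher at 2 than at 0 dpa (adjusted p = 0.613). It fell by 1.93 from 2 to 5 dpa (3.81-fold, adjusted p = 4.6e-12), where 2.13% were called lower, and by 0.51 from 5 to 10 dpa (adjusted p = 7.3e-04), which did not reach 3-fold. The YLS9 call from 2 to 5 dpa was lost when the deposited values were quantile normalized, with a change of -0.19 (adjusted p = 0.0612), and also with centring on the poly-A controls, which left -1.57.

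In infested bolls no step between neighbouring stages reached 3-fold. ATOSM34 read 0.18 lower at 2 than at 0 dpa (adjusted p = 0.0156), rose by 1.51 from 2 to 5 dpa (2.84-fold, adjusted p = 1.4e-14) and rose by 0.93 from 5 to 10 dpa (adjusted p = 1.4e-11). The last of these rises turned to a fall after quantile normalization. YLS9 rose by 0.83 from 0 to 2 dpa (adjusted p = 2.0e-06), read 0.11 lower at 5 than at 2 dpa (adjusted p = 0.416) and rose by 1.31 from 5 to 10 dpa (adjusted p = 1.3e-09). Over the whole series of stages both transcripts passed both thresholds in opposite directions. From 0 to 10 dpa ATOSM34 fell by 2.07 in control bolls (adjusted p = 3.9e-17) and rose by 2.26 in infested bolls (adjusted p = 4.0e-18). YLS9 fell by 2.36 in control bolls (adjusted p = 1.2e-13) and rose by 2.03 in infested bolls (adjusted p = 5.9e-13). From 0 to 10 dpa 1.2% of probe sets were called lower in CN and 4.66% higher in BS. Nothing is read from the joint fall and rise, since both add to the difference that chose the members. After quantile normalization these 4 changes kept their directions but dropped under 3-fold, to -1.11 and 0.84 for ATOSM34 and -1.48 and 0.65 for YLS9.

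**Figure D3:**
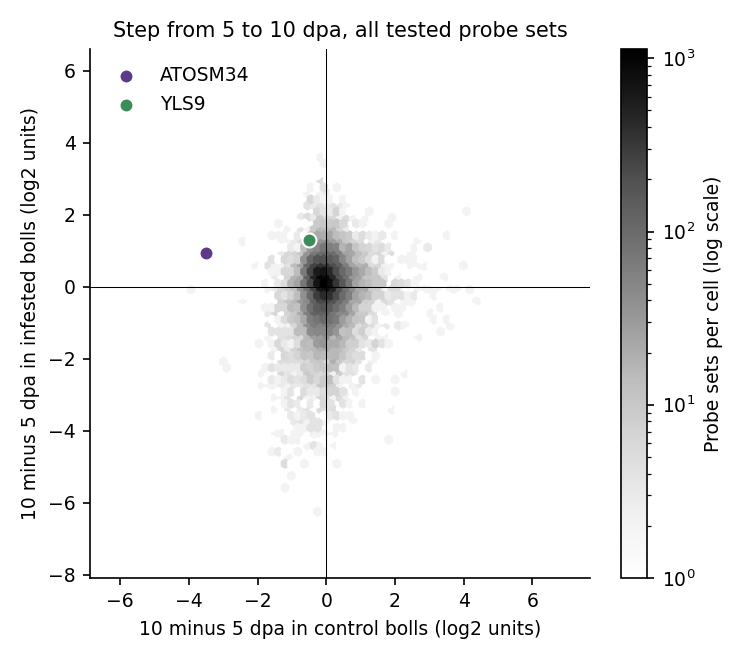
Change from 5 to 10 dpa in control bolls (horizontal axis) and in infested bolls (vertical axis), both in log2 units, for all 23977 tested probe sets, with darker cells holding more probe sets on a log scale and the members as coloured points. ATOSM34 (-3.51 in CN, 0.93 in BS) lies at the left edge of the cloud, and YLS9 (-0.51, 1.31) lies within its upper part.

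Probe sets whose names hold words for other tissues moved along with these differences. They were picked by those words alone, so they are not proven markers of the tissues. Several of the fibre list are named for the expansin ATEXPA4. Over all tested probe sets, 4.19%, 3.34%, 6.39% and 8.97% were called higher in BS at 0, 2, 5 and 10 dpa, and 1.28%, 4.46%, 2.46% and 11.5% lower. Among 10 fibre probe sets, 1, 2, 0 and 0 were called higher and 2, 5, 5 and 8 lower at these stages. The mean over the fibre list was 1.32 to 1.40 log2 units in the CN arrays and -1.69 to -1.67 in the BS arrays at 10 dpa. Of 17 photosynthetic probe sets, 2, 0, 2 and 1 were called higher and 0, 13, 1 and 14 lower. At 10 dpa the mean of this list was 1.05 to 1.12 in CN and -0.74 to -0.69 in BS. Of 3 pollen and anther probe sets, 2, 0, 2 and 2 were called higher, by 2.54 and 2.57 at 10 dpa, and the other was called lower at 10 dpa, with -5.87. The 2 higher ones are named a short-chain dehydrogenase and a tropinone reductase, and were listed through a match to a tapetum gene. Of 16 storage and embryo probe sets, 6, 5, 4 and 3 were called higher and 1, 4, 5 and 8 lower. Most of these carry only the general family name of protease inhibitor, seed storage and lipid transfer proteins, so they need not belong to embryo tissue. Centred values cannot show which of these transcripts were at 0, and the part of tissue makeup in the ATOSM34 and YLS9 differences was not tested. In bolls taken as a whole or as a portion, fewer cells of a type and less RNA per cell cannot be told apart.

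A further probe set, Ghi.1011.2.A1_at, carries the same cluster number as the YLS9 probe set. It was picked by its identifier after its values were seen, and it is in none of the lists below. Its differences were smaller than those of the YLS9 probe set at every stage. Its CN arrays read -0.44, -0.59 and -0.62 at 10 dpa and its BS arrays 0.50, 0.90 and 1.13, a difference of 1.39 log2 units (SE 0.13, 2.63-fold, adjusted p = 2.8e-09 by limma) with no overlap. This is under the fold threshold and under the 6.89 of the YLS9 probe set. At 0, 2 and 5 dpa it differed by 0.18, 0.36 and 0.25 log2 units (adjusted p = 0.245, 0.0199 and 0.0881 by limma). The CN and BS arrays overlapped at 0 and 5 dpa. Centred on the hybridization controls these 3 early differences turned to -0.40, -0.49 and -0.47, so their sign depends on the scaling, while that at 10 dpa stayed above 0 at 0.73.

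**Figure D4:**
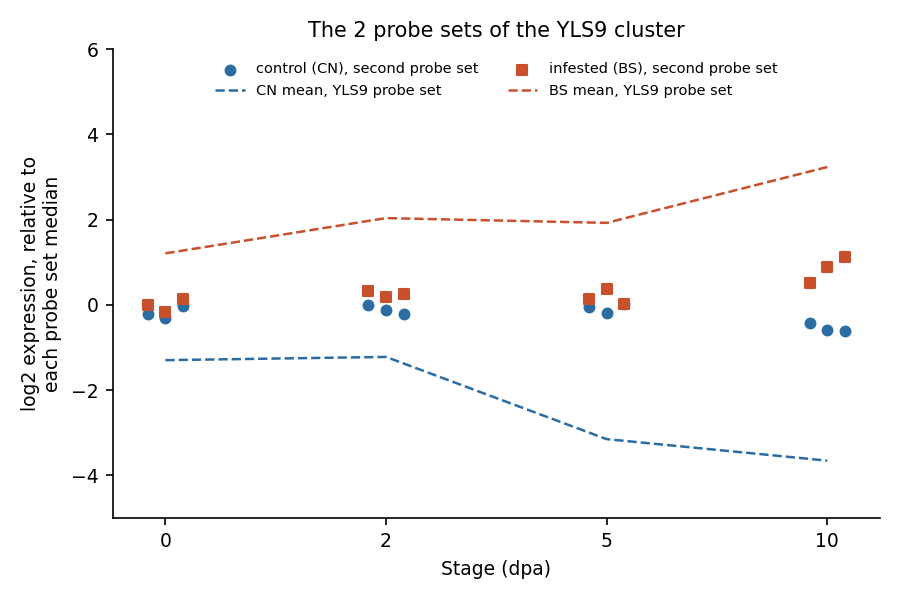
Array values of probe set Ghi.1011.2.A1_at (points, CN circles and BS squares) and group means of the YLS9 probe set of the same cluster (dashed lines), in log2 units relative to each probe set's median, against stage in dpa. At 10 dpa the points are 1.39 apart on average and the dashed lines 6.89.

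At 2 and 10 dpa most relatives of ATOSM34 were lower in BS, where ATOSM34 was higher. The names of the study's tables gave 8 further probe sets of the thaumatin and osmotin family. Those tables list mainly transcripts found changed in these samples, so counts over the family are not independent evidence of its direction, and some of its probe sets share a cluster and so perhaps a gene. Of the 8, 1 was called higher in BS at 0, 5 and 10 dpa and 0 at 2 dpa. Called lower were 2, 6, 4 and 7 at the stages from 0 to 10 dpa, where 1.28%, 4.46%, 2.46% and 11.5% of all probe sets were called lower. Their median difference was -0.43, -3.10, -1.48 and -6.06 log2 units, against -0.08, 0.07, -0.11 and 0.08 over all tested probe sets.

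The 1 relative that moved with ATOSM34 was the osmotin-like pathogenesis-related protein (Ghi.10646.1.S1_s_at), which was 6.08, 5.01 and 8.62 log2 units higher in BS at 0, 5 and 10 dpa (SE 0.15). At 2 dpa it read -0.48, where ATOSM34 read 4.27. The control means of this osmotin-like transcript were -6.38, 0.77, -4.46 and -7.81 at 0, 2, 5 and 10 dpa, a course with a high point at 2 dpa, while those of ATOSM34 were -2.37, -3.37, -0.94 and -4.44, with a high point at 5 dpa. Both transcripts had their lowest level of the 8 groups in CN bolls at 10 dpa. The 5 probe sets named for ATLP-1, a thaumatin-like protein of Arabidopsis, were all called lower at 10 dpa, by between -2.21 and -8.14 log2 units. The widest of them, Ghi.8826.1.S1_s_at, read -1.89, -6.19, -2.09 and -8.14 (SE 0.09) at 0, 2, 5 and 10 dpa. Its CN means lay between 0.77 and 1.32, and its BS mean was -7.04 at 10 dpa. The putative thaumatin Ghi.9904.1.S1_at read -1.30, -4.07, -1.65 and -6.86 (SE 0.11) and GhiAffx.63452.1.S1_at 0.39, -2.14, -1.08 and -4.70 (SE 0.15). The sign of the latter at 0 dpa and of ATLP-1 probe set Ghi.8388.1.S1_x_at at 2 dpa turned under other scalings, whereas the signs at 10 dpa held under quantile normalization and both control centrings for all 8.

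At each stage at least 2 of the 4 relatives of YLS9 were higher in BS, as YLS9 was. Of the 4 other NDR1/HIN1-like probe sets in the tables, 3, 2, 2 and 3 were called higher in BS at 0, 2, 5 and 10 dpa, where 4.19%, 3.34%, 6.39% and 8.97% of all probe sets were, and 1 was called lower, at 10 dpa. With arrays centred on the poly-A controls the calls over the 4 stages changed from 10 higher and 1 lower to 4 higher and 3 lower. The same caution on the choice of names holds. NHL3, which in Arabidopsis is tied to resistance to bacteria, came closest to YLS9 in size, with 3.87, 2.87, 4.32 and 6.75 log2 units (SE 0.15) against 2.51, 3.26, 5.08 and 6.89. A HIN1-related transcript was higher by 2.18, 1.86, 1.88 and 2.82 (SE 0.08). NHL25 was higher by 1.66 and 1.96 at 0 and 10 dpa, and read 1.21 and 1.44 at 2 and 5 dpa, under 3-fold (SE 0.10); its sign at 2 and 5 dpa turned with centring on the poly-A controls. NHL1 read -0.37, -0.06 and -1.56 at the first 3 stages and was called lower at 10 dpa with -2.89 (SE 0.17). The median of the 4 was 1.92, 1.53, 1.66 and 2.39 log2 units, under the YLS9 value at each stage.

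**Figure D5:**
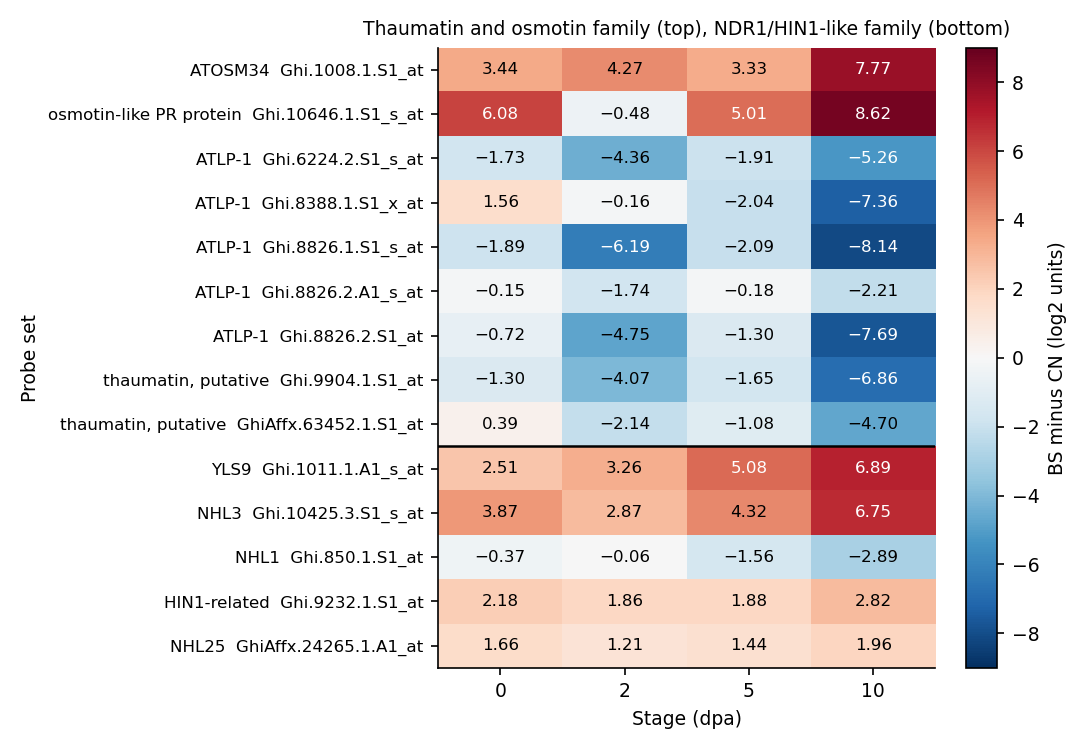
BS minus CN in log2 units, as colour and printed value, for the 9 probe sets of the thaumatin and osmotin family (above the line, ATOSM34 first) and the 5 of the NDR1/HIN1-like family (below it, YLS9 first), by stage in dpa. At 10 dpa ATOSM34 (7.77) and the osmotin-like protein (8.62) are red while the other 7 of their family are blue, and NHL1 (-2.89) is the blue row below the line.

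Wider lists of the defence and stress programmes in which osmotins and YLS9 are known were mixed. They come from the same tables, with the same caution. Of 15 other pathogenesis-related probe sets, 9, 4, 7 and 9 were called higher in BS at 0, 2, 5 and 10 dpa, and 0, 1, 0 and 4 lower, against shares over all probe sets of 4.19%, 3.34%, 6.39% and 8.97% higher and 1.28%, 4.46%, 2.46% and 11.5% lower. Their median was 1.90, 0.20, 0.99 and 2.72 log2 units. A class I endochitinase, an enzyme that cuts chitin, read 4.76, -1.46, 2.41 and 6.77 (SE 0.07), so that it shared the strong rise of ATOSM34 at 10 dpa but not at 2 dpa. Of 3 probe sets named for the chitinase-like POM1, which in Arabidopsis takes part in making cellulose, 2 were called lower at 10 dpa, with -6.84 and -6.57, and 1 higher, with 2.01. A further probe set, named for ELP, which is another name of POM1, was also called lower at 10 dpa, with -2.14. Of 27 senescence and yellow leaf probe sets without YLS9, 9, 3, 11 and 10 were called higher and 2, 5, 3 and 13 lower at 0, 2, 5 and 10 dpa, with medians of 0.24, 0.06, 0.25 and -1.55. The 3 probe sets of SAG21, a senescence-associated gene of Arabidopsis, were called higher at 0, 5 and 10 dpa, by 3.17, 3.50 and 2.00 at 0 dpa and by 6.05, 5.50 and 3.27 at 10 dpa. At 2 dpa none of the 3 was called, and the first 2 read 0.75 and 0.81, where YLS9 read 3.26. Of 28 dehydration and osmotic stress probe sets, 8, 7, 9 and 11 were called higher and 2, 7, 5 and 14 lower at 0, 2, 5 and 10 dpa, with medians of 0.34, 0.16, 0.03 and -1.65. Among them, the late embryogenesis abundant protein D11 rose at 2, 5 and 10 dpa by 4.58, 6.32 and 8.95 (SE 0.12), and RD26, a drought-responsive NAC transcription factor in Arabidopsis, read 3.24, 1.64, 5.71 and 7.68 (SE 0.10).

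In the deposited values, the 2 members had less alike courses than their shared rise at 10 dpa would show. Over the 12 BS arrays their values correlated with r = 0.80, and over the 12 CN arrays with r = 0.08. Each of these rests on only 4 groups of 3 arrays, and the arrays of a group are not independent points of the course. Over all 24 arrays r was 0.88, a value that includes the gap between CN and BS and rests on 8 groups of 3 arrays. Among the 23976 other probe sets ordered by r, YLS9 was 203rd for ATOSM34, and ATOSM34 was 1541st for YLS9. ATOSM34 had 108 probe sets above r = 0.9 and YLS9 had 1247.

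The named probe sets nearest to ATOSM34 over the 24 arrays included a tau class glutathione S-transferase (ATGSTU23, r = 0.97) and nitrate reductase 1 (NIA1, r = 0.96). The others were named for the cationic amino acid transporter AAT1 (r = 0.95), the short-chain dehydrogenase ABA2 (r = 0.94) and the calcium sensor TCH2 (r = 0.94). The names ATGSTU23, ABA2 and TCH2 are uncertain. Elsewhere the study gives the glutathione S-transferase probe set a different tau class number. The study lists the ABA2 probe set as unknown among its quantitative PCR transcripts, and elsewhere names the TCH2 probe set CAM1, a calmodulin. BS minus CN for the glutathione S-transferase was 3.27, 3.69, 3.34 and 6.39 log2 units (SE 0.12), against 3.44, 4.27, 3.33 and 7.77 for ATOSM34. The TCH2 probe set read 3.08, 3.52, 2.34 and 4.22 (SE 0.12), with its lowest value at 5 dpa as for ATOSM34. Nitrate reductase read 2.63, 3.45, 4.22 and 6.04 (SE 0.13) and climbed at each stage. The named probe sets nearest to YLS9 were a zinc ion and nucleic acid binding protein, the ethylene pathway transcription factor EIN3a, a GRAM domain protein related to abscisic acid response, the dehydroascorbate reductase DHAR1 and a calmodulin-binding transcription activator, each with r = 0.99. Of these, the GRAM domain protein came nearest to YLS9 in size, with 3.46, 3.45, 4.39 and 7.03 log2 units (SE 0.11), and the others reached 2.04 to 3.79 at 10 dpa.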

How the data were processed

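Cotton boll RNA was measured on 24 Affymetrix cotton GeneChips. The authors deposited log2 values from RMA (background correction, quantile normalization and summary per probe set), run in GeneSpring GX. Each probe set has a median of 0 over the arrays, so absolute levels are lost and no filter on dim probe sets could be applied. For this work, the probe sets of spike-in and housekeeping controls (103 AFFX) and of reporters (52 RPTR) were dropped, and 8 group means were fitted to the other 23977 with limma 3.58.1 in R 4.3.3 (16 residual and 3.53 prior degrees of freedom). Calls followed the paper's thresholds, with a Benjamini-Hochberg adjusted p up to 0.01 and 3-fold or more. Groups were taken from the sample labels, and only 3 arrays per group limit the precision.

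The methods' t-test, unpaired, gave 1310, 1871, 2118 and 4910 calls for BS against CN at 0, 2, 5 and 10 dpa with unadjusted p and 1303, 1865, 2099 and 4900 after Benjamini-Hochberg, where limma gave 1311, 1871, 2122 and 4913. The code was tested on simulated data with known changes. No 2 replicate arrays were alike enough to be one array deposited again. Names come from the tables of the paper, which give 2841 tested probe sets a name and list mainly changed transcripts. Named were both members, all probe sets of their families, the 5 named probe sets with the highest correlation to each member, and the 2 most changed called probe sets of each other list. The members and lists were chosen with earlier results of these data known. Alternatives were other scalings, thresholds, tests and samples, and other comparators at 2 dpa.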

Additional observations from a re-analysis of the deposited data

Results flagged for a closer look

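In the deposited values, control and infested bolls moved in opposite directions over the later stages. ATOSM34 changed by -3.51 log2 units in CN and 0.93 in BS from 5 to 10 dpa, and by -2.07 in CN and 2.26 in BS from 0 to 10 dpa. YLS9 changed by -0.51 in CN and 1.31 in BS from 5 to 10 dpa, and by -2.36 in CN and 2.03 in BS from 0 to 10 dpa. In each case the arrays of the earlier and later stage did not overlap, and the difference between CN and BS steps was not tested, because it is built from the contrast that chose the members. After quantile normalization ATOSM34 fell from 5 to 10 dpa in BS as well as in CN, so the opposite directions of that step depend on the scaling.

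Spike-in controls, which enter no comparison of genes, were brighter in BS than in CN arrays. The hybridization controls differed by 0.58, 0.84, 0.73 and 0.67 log2 units and the poly-A controls by 1.12, 1.83, 1.72 and 0.94 at 0, 2, 5 and 10 dpa, with every BS array above every CN array of its stage.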

How the results depend on the processing

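No BS minus CN difference and no called step of ATOSM34 or YLS9 changed sign under any alternative run, but sizes moved. Of the steps not called, the ATOSM34 rise in BS from 5 to 10 dpa turned to a fall under quantile normalization. Quantile normalization was here run on values that RMA had already quantile normalized and that were then centred. Their SD over the probe sets of an array lay between 0.35 and 1.07, and this run sets it to be the same in all arrays. BS minus CN at 0, 2, 5 and 10 dpa read 2.86, 3.42, 2.61 and 7.11 for ATOSM34 and 1.93, 2.41, 4.35 and 6.23 for YLS9 with arrays centred on hybridization controls, and 2.32, 2.44, 1.62 and 6.83 for ATOSM34 and 1.39, 1.43, 3.36 and 5.95 for YLS9 with poly-A controls. Quantile normalization gave 5.73 and 5.37 for ATOSM34 at 2 and 10 dpa, so that its largest difference moved to 2 dpa, and 2.72, 4.31, 4.41 and 4.85 for YLS9; array medians gave 3.50 for ATOSM34 at 0 dpa and 5.14 for YLS9 at 5 dpa. With CN of 0 and 5 dpa as comparator at 2 dpa, ATOSM34 read 2.55 and YLS9 4.26. Among steps, quantile normalization took ATOSM34 past 3-fold from 0 to 2 dpa in CN (-2.86) and from 2 to 5 dpa in BS (1.72), took YLS9 under it from 2 to 5 dpa in CN (-0.19), and from 0 to 10 dpa left -1.11 (CN) and 0.84 (BS) for ATOSM34 and -1.48 (CN) and 0.65 (BS) for YLS9. From 2 to 5 dpa, hybridization controls gave 1.86 for ATOSM34 in BS, and poly-A controls 1.98 for it and -1.57 for YLS9 in CN. A 2-fold threshold would add 2 ATOSM34 steps, where it fell by 1.00 (CN, 0 to 2 dpa) and rose by 1.51 (BS, 2 to 5 dpa) and the YLS9 step of 1.31 (BS, 5 to 10 dpa). The cause of these shifts was not tested.

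Over the 4 stages the other NDR1/HIN1-like probe sets were called lower 1 time, and 2 times with quantile normalization, hybridization controls, a 2-fold threshold, without CN 5 dpa replicate 3 or without BS 5 dpa replicate 1 (1 to 2 over all arrays left out). They were called higher 10 times, and 6 with hybridization controls. With poly-A controls, added after seeing the data, they were called higher 4 times and lower 3 times. Quantile normalization gave 3289 calls over the 4 infested steps, against 5542. The correlation of the members was 0.884 over 8 group means and 0.832 by ranks. Leaving out 1 array at a time changed no call of ATOSM34 or YLS9, and their differences at 10 dpa stayed within 7.75 to 7.81 and 6.70 to 7.06. Without CN 10 dpa replicate 2, chosen after the data were seen, YLS9 stayed in that range. Replicate numbers did not pair the samples: of 12 CN and BS pairs, 1 correlated above 0.1 (-0.24 to 0.11), and 3 were best with their own number. The fit with the replicate block left ATOSM34 at 7.77 and YLS9 at 6.89 at 10 dpa and changed no call.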
